A study of Mus musculus with 22 samples.

Results

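The liver response of wild-type mice to glucagon infused at 150 µg/d was measured against wild-type mice that had no infusion. Infused livers gave 4 libraries, numbered 15, 16, 17 and 18 in the labels, and uninfused livers gave 3, numbered 1, 2 and 3. These 7 libraries belong to a series of 22 in 6 groups, which also holds wild-type liver at 30 µg/d and liver of mice lacking the glucagon gene (Gcg-/-) at 150 µg/d, at 30 µg/d and without infusion. All 24475 genes of the deposited table were taken, and 11590 of them, with a mean of at least 0.5 RPKM over the 22 libraries, were tested. RPKM counts a gene's reads after division by its transcript length and by the size of the library. The labels do not give the strain, age or sex of the mice, or the route or length of the infusion. Nor do they say whether libraries and mice match 1 to 1. The p-values weigh the difference between group means against the spread among libraries within all 6 groups. The uninfused mice carried no vehicle infusion by their label, so glucagon and the infusion itself cannot be told apart. Wild-type mice also kept their own glucagon gene.

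Glucagon is released by pancreatic alpha cells in fasting and acts on hepatocytes through the receptor Gcgr. The receptor couples to adenylyl cyclase, and the cAMP it makes activates protein kinase A, which phosphorylates CREB, a transcription factor that binds the cAMP response element. In liver the hormone is known for raising glucose output from glycogen and from amino acids, and for raising urea synthesis.

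The 7 libraries held an estimated 11.4 to 17.6 M reads, so that 1 read on a transcript of 1 kb was worth 0.0568 to 0.0877 RPKM. Hepatocyte markers summed to 48900 to 57000 RPKM in infused livers and to 58800 to 65000 RPKM in uninfused ones. Of 12 markers of pancreas and fat, 6 were listed at 0 in all 7 libraries (Plin1, Cpa1, Prss1, Ins2, Lep and Cela3b). The 12 summed to 5.02 to 10.6 RPKM in infused livers and to 10.7 to 14.8 RPKM in uninfused ones. Most of that was Cela1, at 4.82 to 10.6 RPKM in infused livers and 10 to 14.2 RPKM in uninfused ones. Spearman's rho across genes was 0.971 to 0.984 between infused libraries, 0.984 to 0.989 between uninfused ones and 0.970 to 0.983 between the groups. Gcg was listed at 0 in every library of the series, so it does not check the genotypes. Library 17 of the infused group stood apart. Its acute phase genes, secreted proteins that hepatocytes make in inflammation, summed to 56200 RPKM, against 16300 to 24600 RPKM in the other 3 infused libraries and 15600 to 28400 RPKM in uninfused ones. Saa1, serum amyloid A, was at 7145 RPKM there, against 584 to 1021 RPKM in the other infused libraries, and neutrophil markers summed to 60.2 RPKM against 5.44 to 10.8 RPKM. The metabolic enzymes and the lists it moved most are given below with and without it, and the cause of its values was not tested.

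Between infused and uninfused wild-type livers, 34 of the 11590 genes (0.293%) differed at a Benjamini-Hochberg adjusted p under 0.05. The test was limma, a linear model fitted to log2(RPKM + 1) across all genes. Of the 34 genes, 10 were higher in infused livers (0.0863%), here said to rise, and 24 were lower (0.207%), said to fall. A difference of at least 2-fold was found in 10. The largest rise was that of the steroid hydroxylase Cyp17a1 and the smallest adjusted p was shared by the xenobiotic receptor Nr1i2, which rose, and the molybdenum cofactor sulfurase Mocos, which fell (adjusted p = 0.00625 for both). All 34 genes were apart between the groups, meaning that no infused library overlapped an uninfused one, as were 1675 of all genes tested (14.5%). The median log2 fold change of all genes tested was -0.02. An unadjusted p under 0.05 was reached by 1405 genes (12.1%), of which 556 were higher and 849 lower.

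The number of genes called rested on single libraries. It was 48 without library 17, with 25 genes in common, and 2, 5 and 19 without libraries 15, 16 and 18. Without the uninfused libraries 1, 2 or 3 it was 4, 5 and 0. The share of called genes that rose was 29.4%, against 61.5% when each library was rescaled to one sum, 46.9% with quantile normalization and 42.9% with median-of-ratios scaling. Nr1i2 and Mocos were called in 16 of 17 alternatives each, and Mmd2, Btg3 and Pdcd4 in 13 of 17.

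Cyp17a1 (chr19:46667165-46673000 in RefSeq on GRCm38) encodes the enzyme that hydroxylates and cleaves the side chain of progestins on the way to androgens. Its levels were 22.3, 31.65, 19.3 and 44.7 RPKM in the 4 infused livers, against 1.88, 2.37 and 3.66 RPKM in the 3 uninfused ones. The lowest infused library thus lay well above the highest uninfused one, and the groups did not overlap. The log2 fold change was 3.03 ± 0.58 (SE, limma adjusted p = 0.0386), the largest among the called genes. Mmd2 (chr5:142563480-142608936), a membrane protein of the progestin and adipoQ receptor family, was at 15.9, 12.3, 15.6 and 16.2 RPKM in infused livers, against 2.86, 3.98 and 2.09 RPKM in uninfused ones (log2 fold change 2.03 ± 0.32 SE, limma adjusted p = 0.0137). E030018B13Rik, for which no role is given here, was at 8.62, 7.28, 4.63 and 6.83 RPKM against 0.933, 1.09 and 1.11 RPKM in uninfused livers (log2 fold change 1.92, limma adjusted p = 0.0324). Both genes were detected in every library of both groups, and every infused library exceeded every uninfused one.

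Btg3, an antiproliferative protein of the BTG/Tob family, was at 6.86, 4.28, 7.25 and 7.56 RPKM in infused livers and at 2.88, 1.90 and 1.87 RPKM in uninfused ones (log2 fold change 1.21 ± 0.20 SE, limma adjusted p = 0.0156). Nr1i2 encodes PXR, the pregnane X receptor, which switches on drug-metabolizing genes when it binds foreign compounds or bile acids. It was at 34.6, 34.5, 29.0 and 31.4 RPKM in infused livers, against 17.5, 19.2 and 18.95 RPKM in uninfused ones (chr16:38248349-38294849, log2 fold change 0.77 ± 0.11 SE, limma adjusted p = 0.00625). The spread within each group was narrow for Nr1i2, at an SD of 2.69 and 0.909 RPKM. The other 5 genes that rose did so by less than 2-fold. Gde1, a glycerophosphodiester phosphodiesterase, averaged 38.2 ± 3.83 RPKM in infused livers and 22.6 ± 1.14 RPKM in uninfused ones (SD, n = 4 and 3). Grn, which encodes the lysosomal and secreted protein progranulin, averaged 79.5 ± 6.56 and 50.9 ± 3.55 RPKM in infused and uninfused livers, and Gfra1, a co-receptor for the growth factor GDNF, 57.1 ± 6.41 and 36.5 ± 0.914 RPKM. Dst, the cytoskeletal linker dystonin, averaged 9.90 ± 1.43 RPKM in infused livers and 6.13 ± 0.271 RPKM in uninfused ones, and Ccar1, a regulator of cell division and apoptosis, 11.7 ± 1.29 and 8.41 ± 0.515 RPKM. In all 5 the lowest infused library was above the highest uninfused one.

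**Figure D1:**
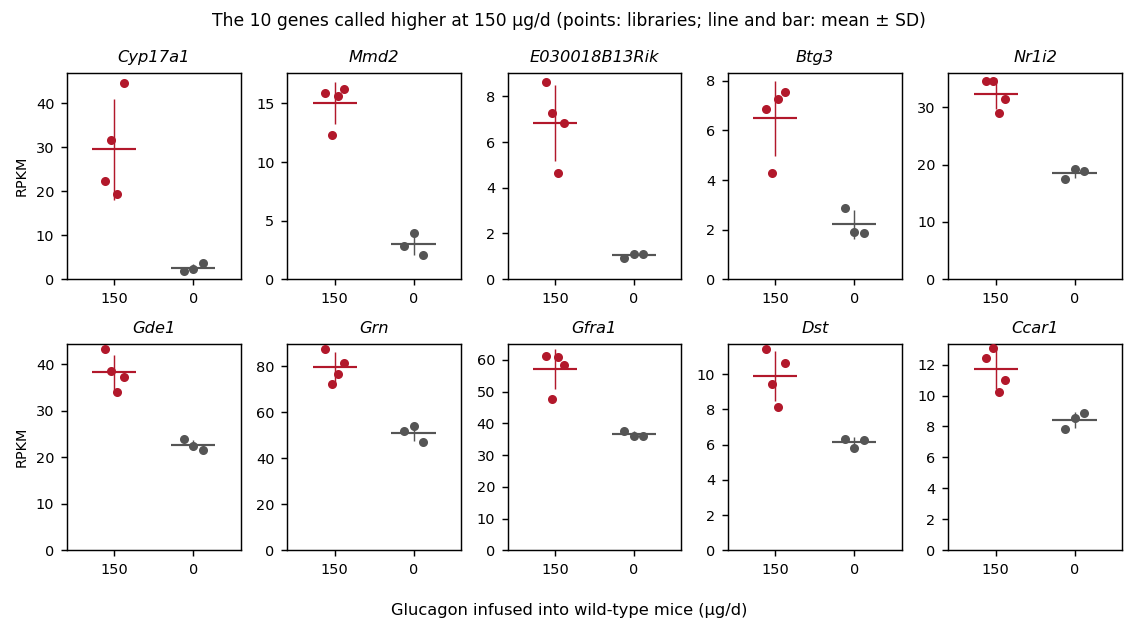
RPKM of the 10 genes that rose, with glucagon dose in µg/d on the x axis (150 at the left, no infusion at the right); points are libraries, horizontal lines group means and vertical bars 1 SD (n = 4 and 3). No panel shows an overlap: Cyp17a1 lies between 19.3 and 44.7 RPKM at 150 µg/d and between 1.88 and 3.66 RPKM without infusion.

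Among genes that did not pass, 3 had the smallest p on the higher side without overlap. Marveld3, a tight junction protein, averaged 1.16 ± 0.251 RPKM in infused livers and 0.275 ± 0.162 RPKM in uninfused ones (limma adjusted p = 0.0567). Mbnl2, an RNA-binding regulator of splicing, averaged 15.1 ± 3.37 and 8.31 ± 1.14 RPKM in infused and uninfused livers (adjusted p = 0.0615). Both were called when library 17 was left out, with adjusted p of 0.0456 for Marveld3 and 0.0354 for Mbnl2 in limma. The third was Rnaset2a, described with its neighbour Rnaset2b further on.

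Promoters were searched for the cAMP response element, TGACGTCA, and for its short form TGACG, on both strands, since CREB binds both; the short form lies within the full element. RefSeq windows of 300 bases, from 250 before to 50 after the start of transcription on GRCm38.p6, were found for 9 of the 10 genes that rose and 19 of the 24 that fell. TGACG lay in the windows of 2 of the 9 genes that rose (22.2%) and 7 of the 19 that fell (36.8%). It lay in those of 35.4% of the tested genes that have a window and 23.0% of all 27025 genes that have one. TGACGTCA lay in none of the 9 and in 1 of the 19 (5.26%), against 3.49% of tested genes and 2.03% of all genes with a window. These shares are a description of letters in a window and say nothing of binding. The windows of 3 genes are shown, those with the smallest p in the comparison among 21 candidates that were searched for the short form. The candidates were the higher genes taken by the rule for named genes and fixed glucagon genes. That choice left out provisional symbols such as E030018B13Rik, so of the 2 genes that rose and hold the short form only Dst is shown. The windows belong to Dst, which rose, and to Mbnl2 and Pck1, the gluconeogenic enzyme described below, which did not pass. The capitals mark the short form, which reads TGACG in Dst and Mbnl2 and CGTCA, its reverse complement, in Pck1. It begins 187 bases before an internal start of Dst (chr1:34160010-34160309, plus strand), whose gene spans chr1:33907888-34308662. It begins 45 bases before the start in Mbnl2 (chr14:120275419-120275718, plus strand) and 90 before the start in Pck1 (chr2:173152823-173153122, plus strand).
Dst: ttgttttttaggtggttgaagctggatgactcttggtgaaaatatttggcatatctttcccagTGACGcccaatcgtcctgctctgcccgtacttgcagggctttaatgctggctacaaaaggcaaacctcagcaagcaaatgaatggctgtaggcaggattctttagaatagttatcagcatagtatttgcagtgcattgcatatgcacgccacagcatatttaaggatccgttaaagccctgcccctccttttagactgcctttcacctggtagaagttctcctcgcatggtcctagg
Mbnl2: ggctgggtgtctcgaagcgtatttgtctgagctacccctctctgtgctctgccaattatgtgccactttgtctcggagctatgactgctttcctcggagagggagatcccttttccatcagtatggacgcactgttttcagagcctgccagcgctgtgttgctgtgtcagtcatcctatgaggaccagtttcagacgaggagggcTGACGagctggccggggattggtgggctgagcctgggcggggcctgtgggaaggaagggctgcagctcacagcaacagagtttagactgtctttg
Pck1: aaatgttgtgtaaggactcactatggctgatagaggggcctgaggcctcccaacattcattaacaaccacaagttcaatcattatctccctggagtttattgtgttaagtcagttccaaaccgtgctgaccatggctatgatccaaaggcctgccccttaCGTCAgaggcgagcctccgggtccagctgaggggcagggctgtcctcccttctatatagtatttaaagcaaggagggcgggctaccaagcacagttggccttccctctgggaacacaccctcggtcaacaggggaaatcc

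The 24 genes that fell included 6 that fell at least 2-fold. Gm4952, for which no role is given here, was at 8.43, 14.8, 17.5 and 13.9 RPKM in infused livers, against 33.8, 47.6 and 51.7 RPKM in uninfused ones (log2 fold change -1.65 ± 0.33 SE, limma adjusted p = 0.0456). Clec2h, a C-type lectin-like membrane protein, was at 6.06, 4.04, 2.11 and 2.52 RPKM in infused livers and at 12.9, 10.2 and 11.6 RPKM in uninfused ones (log2 fold change -1.49, adjusted p = 0.0456). Tymp, thymidine phosphorylase, was at 11.9, 21.3, 18.6 and 26.3 RPKM in infused livers, against 49.9, 36.1 and 56.6 RPKM in uninfused ones (log2 fold change -1.27, adjusted p = 0.0456). In each of these genes the highest infused value stayed under the lowest uninfused one. Adck3, also named Coq8a, which takes part in coenzyme Q synthesis, was at 41.4, 61.8, 34 and 64.3 RPKM in infused livers and at 96.8, 99.5 and 121 RPKM in uninfused ones (log2 fold change -1.10). Bhlhe41, a transcriptional repressor of the circadian clock also called DEC2, was at 0.872, 0.700, 1.01 and 0.703 RPKM against 3.14, 2.79 and 2.64 RPKM in uninfused livers (log2 fold change -1.08, adjusted p = 0.0244). Gbp10, an interferon-induced GTPase, averaged 2.33 ± 1.01 RPKM in infused livers and 5.80 ± 0.549 RPKM in uninfused ones (log2 fold change -1.08, adjusted p = 0.0278).

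Smaller falls were found in genes of several functions. Mocos, which adds sulfur to the molybdenum cofactor of aldehyde oxidase and xanthine dehydrogenase, was at 13.8, 12.6, 14.4 and 15.5 RPKM in infused livers, against 20.8, 22.2 and 22.2 RPKM in uninfused ones (log2 fold change -0.60 ± 0.09 SE, limma adjusted p = 0.00625). Gphn, gephyrin, an enzyme of molybdenum cofactor synthesis and a scaffold of inhibitory synapses, averaged 18 ± 1.58 RPKM in infused livers and 26.5 ± 1.03 RPKM in uninfused ones (adjusted p = 0.0456). Pdcd4, an inhibitor of translation that binds eIF4A, was at 37.2, 34.7, 38.0 and 33.6 RPKM in infused livers and at 57.0, 62.6 and 73.9 RPKM in uninfused ones (log2 fold change -0.82 ± 0.13 SE, adjusted p = 0.0154). The infused values of Pdcd4 lay within a few RPKM of each other, and the uninfused ones were spread more widely above them. Fbxo21, a substrate receptor of an SCF ubiquitin ligase, averaged 21.7 ± 1.38 and 40.6 ± 5.61 RPKM in infused and uninfused livers (log2 fold change -0.87, adjusted p = 0.0456).

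Psma5, a subunit of the proteasome's core particle, averaged 33.4 ± 2.24 RPKM in infused livers and 52.7 ± 10.4 RPKM in uninfused ones, and Psmd3, of its regulatory particle, 29.3 ± 0.889 and 37.8 ± 0.883 RPKM (limma adjusted p = 0.0244 and 0.0456). Mcu, the pore of the mitochondrial calcium uniporter, averaged 4.49 ± 0.742 RPKM in infused livers and 7.14 ± 0.401 RPKM in uninfused ones. Mrps30, a subunit of the mitochondrial ribosome, had the smallest fall among called genes (log2 fold change -0.33). Stx4a and Scfd1, which act in membrane fusion, fell by 0.63 and 0.45 on the log2 scale. Tbc1d7, a subunit of the TSC complex that restrains mTORC1, fell by 0.62. The nuclear envelope protein Syne1, the ubiquitin ligase Dtx4 and the U1 snRNP protein Snrpa fell by 0.64, 0.66 and 0.48. Gbp6 and Irgm1, both interferon-induced GTPases, fell by 0.63 and 0.54. The remaining called genes were Mb21d2 and BC004004, with falls of 0.38 and 0.77. The members of the Gbp cluster on chromosome 5 are close copies of each other, so reads may have been divided among them, and their values are uncertain to that extent.

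**Figure D2:**
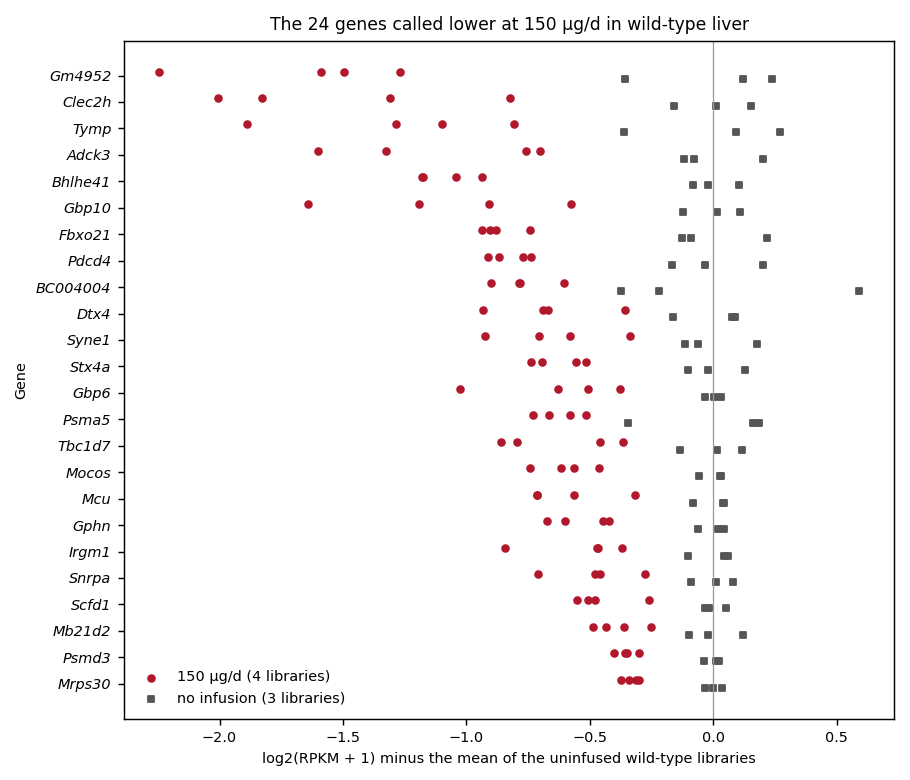
Each library's log2(RPKM + 1) minus the mean of the 3 uninfused wild-type libraries (x axis), for the 24 genes that fell (y axis, largest fall at the top); red circles are the 4 infused libraries and grey squares the 3 uninfused ones. In every gene the circles lie left of all squares, from mean falls of 1.65 in Gm4952 to 0.33 in Mrps30.

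The genes best known as targets of glucagon did not pass the test in wild-type liver. Gluconeogenesis genes, 14 tested, held none that was called by limma, and 4 reached an unadjusted p under 0.05, all higher, where 4.8% of all genes did so; their median log2 fold change was 0.13. Pck1, the cytosolic phosphoenolpyruvate carboxykinase that commits carbon to glucose synthesis, was at 2225, 1557, 764 and 1928 RPKM in infused livers, against 942, 923 and 559 RPKM in uninfused ones (log2 fold change 0.93 ± 0.33 SE, limma adjusted p = 0.28). Its infused libraries exceeded the uninfused ones except library 17, at 764 RPKM, which lay within their range. Without library 17, Pck1 averaged 1900 ± 335 RPKM in 3 infused livers and 808 ± 216 RPKM in uninfused ones, with a log2 fold change of 1.26 ± 0.30 SE and an adjusted p of 0.0699 in limma. G6pc, the glucose-6-phosphatase of the last step, was at 236, 185, 36.9 and 359 RPKM in infused livers, against 184, 187 and 113 RPKM in uninfused ones, with library 17 again the lowest. Its log2 fold change was -0.02 with library 17 and 0.67 without it, and neither passed (adjusted p = 0.998 and 0.63). The coactivator Ppargc1a averaged 3.03 ± 1.29 RPKM in infused livers and 1.66 ± 0.189 RPKM in uninfused ones (adjusted p = 0.459).

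Amino acid catabolism, 60 genes tested, had no called gene, with 1 higher and 6 lower at an unadjusted p under 0.05, against 4.8% and 7.33% of all genes, and a median log2 fold change of -0.03. Without library 17, 5 were higher and 3 lower, against 6.22% and 6.93% of all genes. Its enzymes showed the same spread among infused libraries. Got1, the cytosolic aspartate aminotransferase, was at 374, 253, 58.8 and 278 RPKM in infused livers, against 101, 113 and 103 RPKM in uninfused ones. Sds, serine dehydratase, was at 338, 223, 90.6 and 251 RPKM in infused livers and at 125, 140 and 128 RPKM in uninfused ones. Tat, tyrosine aminotransferase, was at 1124, 966, 379 and 1365 RPKM in infused livers, against 489, 638 and 551 RPKM in uninfused ones. In all 3 genes library 17 lay under every uninfused library and the other 3 infused libraries lay above every uninfused one. Without library 17 their log2 fold changes were 1.49, 1.02 and 1.03 (Got1, Sds and Tat), with limma adjusted p of 0.387, 0.467 and 0.235, so none was called. Oat, ornithine aminotransferase, averaged 801 ± 318 RPKM in infused livers and 677 ± 106 RPKM in uninfused ones, and Gls2, the liver glutaminase, 204 ± 66.5 and 164 ± 13.8 RPKM (adjusted p = 0.935 and 0.863). Without library 17 their log2 fold changes were 0.49 and 0.52 in place of 0.14 and 0.25, with no overlap between the groups and adjusted p of 0.576 and 0.605. Nnmt, which methylates nicotinamide, was at 327, 307, 175 and 350 RPKM in infused livers, against 120, 106 and 103 RPKM in uninfused ones. The groups did not overlap for Nnmt, yet its limma adjusted p was 0.326, with a log2 fold change of 1.35 ± 0.55 SE. That SE draws on the spread within all 6 groups of the series. Nnmt spanned 1.52 to 32.8 RPKM in uninfused Gcg-/- livers, so the miss does not rest on wild-type spread alone.

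The 8 urea cycle genes, which turn ammonia from amino acids into urea, held none called and had a median log2 fold change of 0.30 (0.48 without library 17). Their RPKM summed to 5900, 6080, 3310 and 5920 in infused livers, against 3850, 4330 and 4600 in uninfused ones. Apart from library 17, the lowest of the 7, the infused sums were above all uninfused sums. Without library 17, 6 of 14 gluconeogenesis genes, 15 of 60 amino acid catabolism genes and 5 of 8 urea cycle genes had infused libraries all above the uninfused ones, against 11.7% of all genes tested, and 7 amino acid catabolism genes had them all below, against 12.6%. With library 17 these counts on the higher side were 1, 1 and 1, against 5.27% of all genes. Library 17 had the lowest infused sum of each of these lists, so leaving it out favours counts on the higher side. The 11.7% is thus no like baseline, and the same counts without other infused libraries are not given. Whether the acute phase and neutrophil signal of library 17 bears on its low values of these enzymes was not tested. The receptor Gcgr averaged 77.9 ± 7.87 RPKM in infused livers and 89.8 ± 3.83 RPKM in uninfused ones (limma adjusted p = 0.444), and of 19 genes of the receptor and cAMP chain none was called. The lowest adjusted p of that chain was that of the adenylyl cyclase Adcy9, at 4.97, 5.10, 4.02 and 4.15 RPKM in infused livers, against 7.9, 7.2 and 7.98 RPKM in uninfused ones (adjusted p = 0.0707).

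Leaving out library 17 also brought other genes past the threshold in limma, with 21 rises and 27 falls in all (0.181% and 0.233% of genes). The genes named here were chosen after their values were seen, as the 3 with the smallest p among the added ones. Fh1, the fumarate hydratase of the citric acid cycle, averaged 242 ± 15.8 RPKM in 3 infused livers and 94.4 ± 4.56 RPKM in uninfused ones (log2 fold change 1.35, adjusted p = 0.0288). Hip1r, an endocytic adaptor, averaged 18.7 ± 3.68 RPKM in infused livers and 6.97 ± 0.0783 RPKM in uninfused ones, and Eepd1, a nuclease, 4.90 ± 1.02 and 10.4 ± 0.84 RPKM. With library 17 in place their adjusted p were 0.111, 0.0739 and 0.0632.

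Nr1i2 was the only called gene of the 41 on the xenobiotic list, whose median log2 fold change was -0.26, with 3 genes higher and 7 lower at an unadjusted p under 0.05, against 4.8% and 7.33% of all genes. Cyp3a11, the cytochrome best known as a target of PXR in mouse liver, lay on the other side from its receptor: it was at 371, 543, 310 and 165 RPKM in infused livers, against 1840, 1849 and 2162 RPKM in uninfused ones. The groups did not overlap for Cyp3a11, and its log2 fold change was -2.61 ± 0.65 SE with an adjusted p of 0.0896 in limma, which misses the threshold. Its SE, too, draws on the spread within all 6 groups. Cyp3a11 spanned 401 to 4140 RPKM in uninfused Gcg-/- livers and 450 to 2040 RPKM in wild type at 30 µg/d. Cyp3a25 averaged 268 ± 68.2 RPKM in infused livers and 453 ± 49.7 RPKM in uninfused ones (adjusted p = 0.173). Cyp3a genes are close copies of each other, so shared reads make their values uncertain. Por, the reductase that feeds electrons to microsomal cytochromes, was at 251, 228, 188 and 153 RPKM in infused livers, against 84.3, 123 and 110 RPKM in uninfused ones (adjusted p = 0.11). Cyp17a1 was the only called gene of the 13 female-biased ones, where Cyp3a16, Cyp3a44 and Cyp3a41a had the next smallest p; each averaged 0.359 to 0.41 RPKM in infused livers and 1.69 to 2.19 RPKM in uninfused ones, with adjusted p of 0.173, 0.186 and 0.277.

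Of 16 genes on the interferon-induced list, Irgm1 was the only called one. Another 6 were lower at an unadjusted p under 0.05, making 7 of 16 where 7.33% of all genes were, and none was higher. The list median was -0.36. Gbp10 and Gbp6, the interferon-induced GTPases called lower above, are not on this list. Irgm1 was at 13.3, 17.6, 18.9 and 17.5 RPKM in infused livers, against 22.9, 25.8 and 25.5 RPKM in uninfused ones. Iigp1, an immunity-related GTPase, averaged 63.4 ± 17.4 RPKM in infused livers and 103 ± 5.09 RPKM in uninfused ones (adjusted p = 0.159). No infused library overlapped an uninfused one for Iigp1, which is 1 of 6 genes of the 16 that were apart and lower, against 9.18% of all genes tested.

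Among 18 circadian clock genes, Bhlhe41 was the only called one, and the median was 0.16. Nr1d1, which encodes the repressor REV-ERB alpha, was at 15.6, 17.5, 13.3 and 31.6 RPKM in infused livers, against 47.9, 49.7 and 47.8 RPKM in uninfused ones (log2 fold change -1.35, limma adjusted p = 0.083). Clock averaged 3.32 ± 0.392 RPKM in infused livers and 4.59 ± 0.45 RPKM in uninfused ones, and Cry1, a repressor of the clock's negative limb, 2.49 ± 0.922 and 1.21 ± 0.11 RPKM (adjusted p = 0.266 and 0.303). All 3 were apart between the groups, but they are named for having the next smallest p on the list. Of the 18 genes, 2 were apart and higher and 4 apart and lower, against 5.27% and 9.18% of all genes tested. The labels give no hour of tissue collection, so the infusion and the hour cannot be told apart for these genes.

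**Figure D3:**
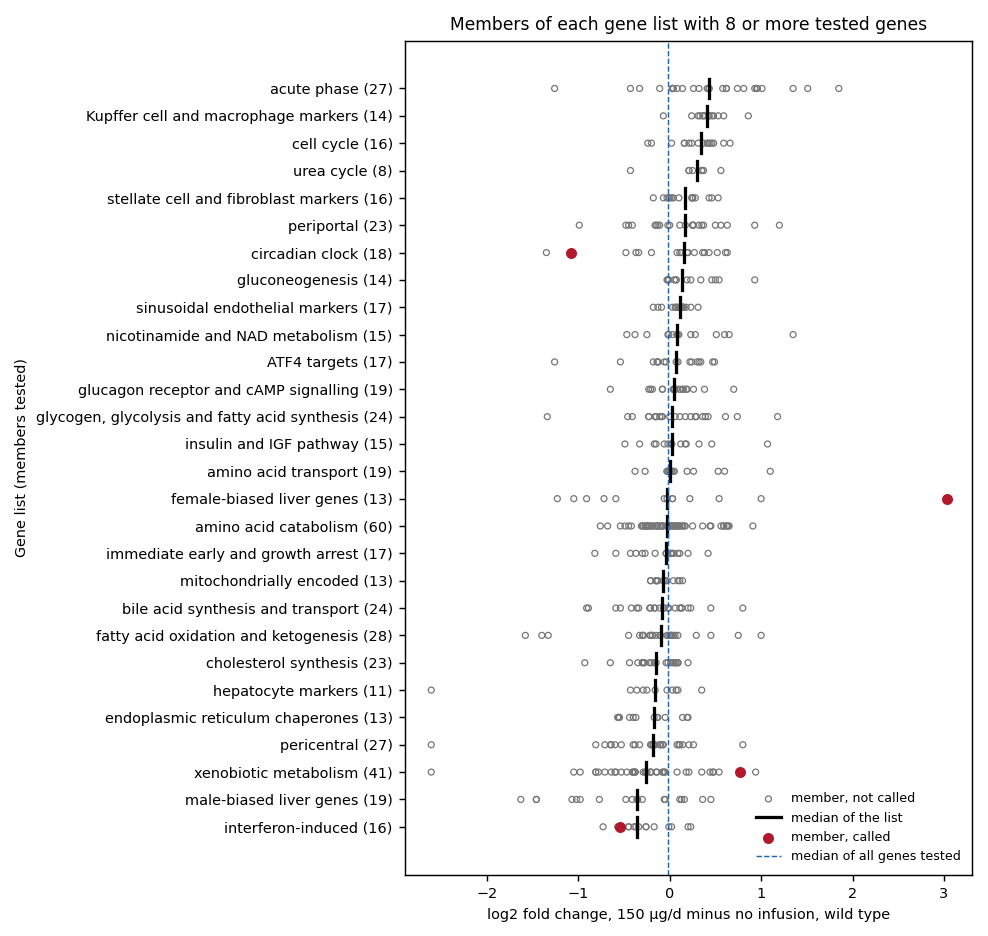
Log2 fold change at 150 µg/d minus no infusion in wild-type liver (x axis) for the tested members of each list with 8 or more (y axis, number tested in brackets); open circles are members that were not called, red points the 4 that were, black bars list medians and the dashed line the median of all genes tested, -0.02. Called members lie on the lists of circadian, female-biased, xenobiotic and interferon-induced genes.

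The series asks how glucagon bears on liver zonation, the division of metabolic tasks between hepatocytes near the portal vein and near the central vein. No gene was called by limma among 23 periportal ones, with 4 higher and 1 lower at an unadjusted p under 0.05, or among 27 pericentral ones, with 0 higher and 5 lower, against 4.8% higher and 7.33% lower among all genes. The medians were 0.17 and -0.18. Pericentral genes were apart and lower in 8 of 27, and periportal ones in 2 of 23, where 9.18% of all genes were. In the higher direction the counts were 1 of 27 and 2 of 23, against 5.27% of all genes. Without library 17, 11 of 23 periportal genes were apart and higher and 2 lower, with a median of 0.26, and 3 of 27 pericentral genes were higher and 9 lower, with a median of -0.19, against 11.7% higher and 12.6% lower among all genes. Library 17 had the lowest periportal sum among infused livers, at 27900 RPKM, so leaving it out favours higher counts on that list. Many periportal genes, such as Ass1, Sds and Pck1, are also on the urea cycle, amino acid catabolism or gluconeogenesis lists above. Pericentral cytochromes such as Cyp2e1 and Cyp3a11 are also on the xenobiotic list. The counts of these lists are thus not separate observations. Glul, the glutamine synthetase of the last cells before the central vein, averaged 372 RPKM in infused livers and 421 RPKM in uninfused ones, and the periportal cytochrome Cyp2f2 666 and 726 RPKM. The pericentral cytochrome Cyp2e1 averaged 3180 RPKM in infused livers and 4180 RPKM in uninfused ones, without overlap (adjusted p = 0.487). The Wnt target Axin2 averaged 1.63 ± 0.315 RPKM in infused livers and 1.84 ± 0.362 RPKM in uninfused ones (adjusted p = 0.88). The bile acid list, 24 genes, had no called gene, with 6 lower and 0 higher at an unadjusted p under 0.05, against 7.33% and 4.8% of all genes. Its lowest adjusted p was that of Hsd3b7, a dehydrogenase of bile acid synthesis, at 115, 127, 164 and 185 RPKM in infused livers, against 278, 263 and 280 RPKM in uninfused ones (adjusted p = 0.0739). Trib3, a pseudokinase and ATF4 target, was at 1.2, 2.11, 1.61 and 0.985 RPKM in infused livers, against 4.54, 5.21 and 4.76 RPKM in uninfused ones (adjusted p = 0.0683). Ppp1r3c, a subunit that targets a phosphatase to glycogen, averaged 5.59 ± 1.93 and 16.5 ± 7.81 RPKM in infused and uninfused livers (adjusted p = 0.159).

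Markers of other liver cells were compared, and in bulk tissue fewer cells of a type and less RNA per cell cannot be told apart. Of 14 Kupffer cell and macrophage markers, 13 had a positive log2 fold change and 5 an unadjusted p under 0.05, against 4.8% of all genes in that direction, with none called by limma and a median of 0.41. Without library 17, which holds the acute phase and neutrophil signal, 2 of the 14 had such a p, against 6.22% of all genes, and the median was 0.38. They summed to 317 to 454 RPKM in infused livers and 289 to 365 RPKM in uninfused ones, so the groups overlapped. Grn, which rose, is highly expressed in macrophages as well as in other cells, and the part of these cells in its rise was not tested. Sinusoidal endothelial markers summed to 170 to 190 RPKM in infused livers and 159 to 172 RPKM in uninfused ones, and stellate cell and fibroblast markers to 286 to 344 and 243 to 274 RPKM. No gene of either list was called with all libraries. At an unadjusted p under 0.05, 2 of 17 endothelial and 3 of 16 stellate cell markers were higher, against 4.8% of all genes. Without library 17 the counts were 1 and 1, against 6.22% of all genes. The stellate list includes Cxcl12, a chemokine, which was called without library 17, at 156 ± 8.68 RPKM in 3 infused livers and 99.2 ± 7.68 RPKM in uninfused ones (adjusted p = 0.0428). Of 16 cell cycle genes none was called and 14 had a positive log2 fold change, as had 5358 of the 11590 genes tested, with a median of 0.34 and sums of 50.3 to 71.3 RPKM in infused livers and 47.9 to 49.0 RPKM in uninfused ones.

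At the lower dose most of the called genes had means between the extremes. The mean at 30 µg/d lay between those without infusion and at 150 µg/d for all 10 genes that rose and for 23 of the 24 that fell, where 41.4% of all genes did so. Both comparisons of that group share libraries with the one above, so this is a description. The called genes were chosen for means far apart without infusion and at 150 µg/d, so another mean falls between them more readily. The 41.4% is thus no like baseline, and these counts do not test an order by dose. Median log2 fold changes at 30 µg/d against no infusion were 0.26 for the genes that rose and -0.27 for those that fell, against 0.75 and -0.63 at 150 µg/d. No gene was called between 30 µg/d and no infusion in limma, while 657 genes (5.67%) had an unadjusted p under 0.05, 2.41% higher and 3.26% lower. Between 150 and 30 µg/d, 1 gene was called (0.00863%), with 941 (8.12%) at an unadjusted p under 0.05, 3.64% higher and 4.48% lower. The called gene was Mmd2, at 2.86, 3.98 and 2.09 RPKM without infusion, 4.52, 1.92, 3.79 and 2.84 RPKM at 30 µg/d, and 15.9, 12.3, 15.6 and 16.2 RPKM at 150 µg/d. At 30 µg/d Mmd2 thus overlapped the uninfused livers, and it was higher at 150 than at 30 µg/d (log2 fold change 1.94 ± 0.29 SE, limma adjusted p = 0.0265). That call rested on single libraries, since Mmd2 was not called without libraries 15, 16, 17 or 18 of the high dose or 8 or 10 of the low dose. Cyp17a1 had the same order of means, at 2.63, 3.29 and 29.5 RPKM from 0 to 150 µg/d, with an adjusted p of 0.0914 between 150 and 30 µg/d. Adck3 was already at 49.1 RPKM at 30 µg/d and at 50.4 RPKM at 150 µg/d, against 106 RPKM without infusion.

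**Figure D4:**
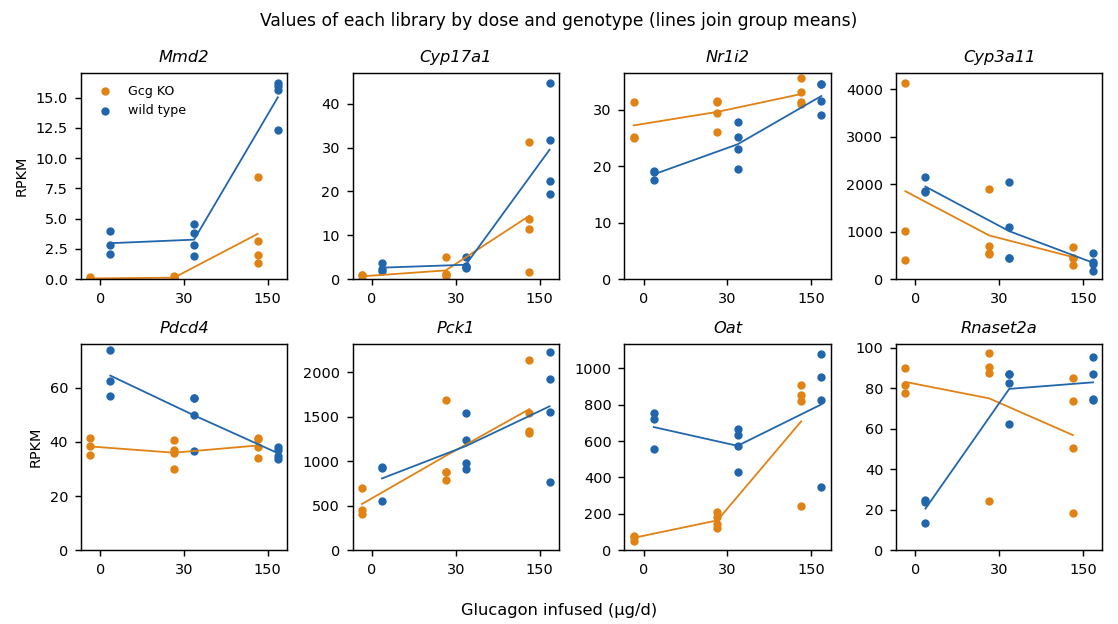
RPKM of each library (points) by glucagon dose in µg/d (x axis, doses in order and not to scale) in Gcg-/- (orange) and wild-type liver (blue), with lines joining group means, for 8 genes; Gcg KO in the legend is Gcg-/-. In wild-type liver Mmd2 and Cyp17a1 lie apart from the lower doses at 150 µg/d, while the means of Nr1i2 and Pdcd4 at 30 µg/d lie between those at 0 and 150 µg/d.

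The same infusion in Gcg-/- mice gave a comparison with no library in common. There, 315 genes were called at 150 µg/d against no infusion (2.72%), 1.31% of all genes as rises and 1.41% as falls, with 6.9% higher and 11.5% lower at an unadjusted p under 0.05. Of the 34 genes called in wild-type liver, 8 were called in the same direction in Gcg-/- liver, which is 23.5% of the first list and 2.54% of the second. The 10 genes that rose had the same sign in Gcg-/- liver in 10 of 10, where 56.9% of all genes did, and 6 of them were called there (Cyp17a1, Mmd2, E030018B13Rik, Btg3, Gfra1 and Grn). Their median log2 fold change was 0.69 in Gcg-/- and 0.75 in wild-type liver. The 24 genes that fell had the same sign in 22, but their median was -0.12 in Gcg-/- and -0.63 in wild-type liver, and 2 were called there (Gm4952 and Fbxo21). In the other direction, 252 of the 315 genes called in Gcg-/- liver (80%) had the same sign in wild-type liver, with a median log2 fold change along that direction of 0.17, against a median size of 0.62 in Gcg-/- liver.

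**Figure D5:**
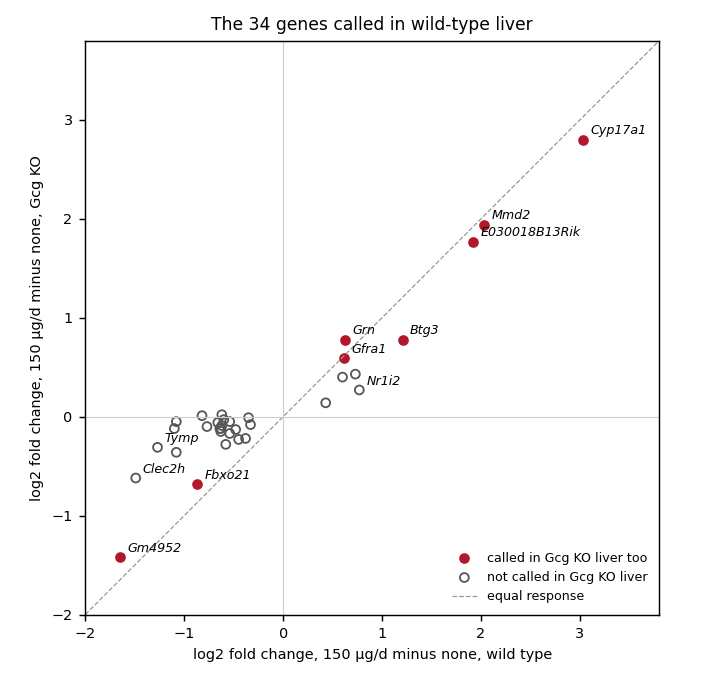
Log2 fold change at 150 µg/d minus no infusion in Gcg-/- liver (y axis) and in wild-type liver (x axis) for the 34 genes called in wild type; red points were also called in Gcg-/- (labelled Gcg KO), open circles were not, and the dashed line marks equal responses. All 10 genes that rose lie above 0 on the y axis (0.14 to 2.80), while those that fell have a median of -0.12 there.

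Cyp17a1 shows the shared part of the response. In Gcg-/- liver it was at 1.6, 11.3, 13.7 and 31.25 RPKM at 150 µg/d, against 0.973, 0.0385 and 0.975 RPKM without infusion, a log2 fold change of 2.80 (limma adjusted p = 0.0165). Mmd2 was at 1.33, 3.16, 2.02 and 8.48 RPKM in infused Gcg-/- livers, against 0, 0.033 and 0.159 RPKM in uninfused ones, so that infused Gcg-/- livers overlapped the range of uninfused wild-type livers. Grn reached 81.8, 67.8, 97.1 and 100 RPKM in infused Gcg-/- livers, against 57.9, 43.7 and 47.8 RPKM in uninfused ones (adjusted p = 0.00373). The levels of Grn at 150 µg/d overlapped between the genotypes.

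The mean of uninfused Gcg-/- liver was nearer to infused than to uninfused wild-type liver for 15 of the 24 genes that fell (62.5%) and 2 of the 10 that rose (20%), against 51.3% of all genes, and these shares were not tested. Pdcd4 was at 41.0, 34.2, 41.3 and 38.3 RPKM in infused Gcg-/- livers and at 41.6, 38.5 and 35.0 RPKM in uninfused ones, all under the 57.0 to 73.9 RPKM of uninfused wild type. In 12 of the 34 genes the 3 uninfused wild-type libraries lay outside the range of all 19 other libraries, which held for 0.846% of all genes tested. These were Nr1i2, Dst, Gde1 and Ccar1, which rose, and Mocos, Pdcd4, Adck3, Tymp, Stx4a, Mcu, Psmd3 and BC004004, which fell. For Mmd2, E030018B13Rik and Mrps30 it was the 4 infused wild-type libraries that lay outside the range of the 18 others (0.0518% of all genes). All 34 genes were already apart between infused and uninfused wild-type livers, as were 14.5% of all genes. Part of each count was thus fixed by how the genes were chosen, and the all-gene shares are no like baseline. For the first 12 genes a response to 150 µg/d and a property of the 3 uninfused wild-type libraries cannot be told apart in these data.

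The difference between the responses was tested as an interaction, the change in Gcg-/- minus the change in wild-type liver. No gene was called (0%), with a lowest adjusted p of 0.108 in limma and 1187 genes (10.2%) at an unadjusted p under 0.05 (4.32% higher and 5.92% lower in the Gcg-/- response), which included 20 of the 34 genes called in wild type. The wild-type change that chose these 34 genes is part of the interaction. That count was thus partly fixed in advance, and the 10.2% is no like baseline for it. The lowest adjusted p was shared by Ebp, Oat and Slc25a48. Oat stood at 245, 910, 822 and 855 RPKM in infused Gcg-/- livers, against 52.1, 71.9 and 80.6 RPKM in uninfused ones, and its wild-type values at 150 µg/d, 350 to 1080 RPKM, overlapped both its uninfused wild-type values and the infused Gcg-/- ones. The interaction for Oat was 3.07 ± 0.56 SE on the log2 scale. Ebp, a sterol isomerase of cholesterol synthesis, averaged 147 RPKM in infused and 77.5 RPKM in uninfused Gcg-/- livers, and 134 ± 11.6 RPKM in infused and 137 ± 3.99 RPKM in uninfused wild-type livers. Mitochondrial carrier Slc25a48 had a log2 fold change of 0.89 in Gcg-/- and -0.15 in wild-type liver, and Txnip, an inhibitor of thioredoxin, -2.77 and 0.06.

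Rnaset2a and Rnaset2b, neighbouring copies of a secreted ribonuclease gene, moved against each other. Rnaset2a was at 86.8, 95.5, 74.3 and 74.9 RPKM in infused livers, against 24.65, 23.7 and 13.2 RPKM in uninfused ones (log2 fold change 2, limma adjusted p = 0.0615). Rnaset2b was at 16.3, 16.1, 27.0 and 36.1 RPKM in infused livers, against 111, 95.05 and 121 RPKM in uninfused ones. Their sum was 107 ± 5.32 RPKM in infused livers and 130 ± 9.41 RPKM in uninfused ones, so the balance between the copies differed more between the groups than the total did. Rnaset2a was also the higher copy in all 4 wild-type libraries at 30 µg/d and in most Gcg-/- libraries, including all 3 without infusion. The copies were closer in library 7 (wild type, 30 µg/d), at 62.5 and 50.4 RPKM of Rnaset2a and Rnaset2b, and in library 22 (Gcg-/-, 150 µg/d), at 50.4 and 58.5 RPKM. Libraries 11 (30 µg/d) and 20 (150 µg/d) of Gcg-/- mice had the balance of the uninfused wild type, with 24.3 and 18.3 RPKM of Rnaset2a. Since the copies are nearly identical, their values depend on how shared reads were divided, which is not given in the sources used here.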

How the data were processed

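The labels' protocols describe strand-specific sequencing of polyadenylated RNA from flash-frozen mouse liver, 22 libraries in all. Per the submitters' processing notes CASAVA 1.8.2 and FastQC were used, with build GRCm38. No aligner, counter or annotation is named, so strand use and the handling of reads common to gene copies are unknown. Values are RPKM as deposited by the authors, 1 column for each library, without counts or pooled columns. No 2 columns were identical.

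Read totals were estimated from the steps between low RPKM values of genes with 1 RefSeq transcript; in the 7 libraries compared, 66.6 to 70.8% of low values were whole to within 0.1 read (20% by chance). Reads were thus not recovered well enough for a count test.

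Library groups follow the sample titles. Genes with a mean of at least 0.5 RPKM were fitted on log2(RPKM + 1) with limma 3.58.1 in R 4.3.3, all 6 groups in one fit with a mean-variance trend and no covariate (16 residual and 3.18 prior degrees of freedom), with Benjamini-Hochberg adjustment over the 11590 genes and a call at an adjusted p under 0.05. Fold changes on this scale understate the change of low genes. SE is limma's moderated one, from the spread within all 6 groups and not only those compared, and SD is over libraries on RPKM. The fit was tested on simulated data.

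Genes and lists were chosen with earlier results of these data known. The rule for named genes took the 12 largest called rises and 12 largest called falls without overlap, averaging at least 1 RPKM in the higher group and bearing a non-provisional symbol, filled by smallest p where fewer qualified. It added up to 4 members of each list with a called gene, fixed glucagon and zonation genes, and the top genes of the other tests. Outside it, the remaining called genes, the lowest p of some lists, acute phase values and calls without library 17 were chosen after their values were seen. Symbols and coordinates are from RefSeq genes on GRCm38.p6, which matched 24375 identifiers. The list symbols Tf and Ahsp were not found under those names. Alternatives were other pseudocounts (0.1 and 2), filters, scalings, array weights, the compared groups alone and each library left out; the fit without libraries 4 and 13, Gcg-/- libraries that stand apart in sex-biased genes, was added after seeing the data.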

Additional observations from a re-analysis of the deposited data

Results flagged for a closer look

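In the 4 infused wild-type libraries, 74 named genes were checked for a library far from the other 3, and 3 had one, where chance gives about 1 in 20 groups. Mmd2 was at 12.32 RPKM in library 16, under the 15.63 to 16.2 RPKM of the other 3, and still above all uninfused libraries. Dmtf1, a transcription factor named for its place in the comparison of 150 with 30 µg/d, was at 3.898 RPKM in library 17, above the 3.508 to 3.567 RPKM of the others. F3, tissue factor, was at 1.159 RPKM in library 15, under the 1.919 to 2.058 RPKM of the others. No gene passed the test of a difference between the responses of the genotypes.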

How the results depend on the processing

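The 34 genes called at 150 µg/d became 8 with a pseudocount of 0.1, 17 without a filter on low values, 13 after rescaling to one sum and 438 with array weights, and 0 to 48 when single libraries were left out. They were 36 with a pseudocount of 2, 34 with a mean of at least 2 RPKM, 32 with quantile normalization, 28 with median-of-ratios scaling, 27 with the 2 groups alone (10 in common) and 48 without libraries 4 and 13 (28 in common). For 150 against 30 µg/d the count of 1 became 0 with a pseudocount of 0.1, 6 with one of 2, 5 without a filter, 2 after rescaling to one sum, 12 with array weights, 3 with the groups alone, 5 without libraries 4 and 13, and 0 to 4 with single libraries left out. The interaction count of 0 became 66 with array weights and 0 to 5 with single libraries left out. Among named genes, signs turned in 5, none of them called. G6pc was at 0 after median-of-ratios scaling, 0.02 after rescaling to one sum, 0.33 with array weights and 0.67, 0.1 and 0.11 without libraries 17, 1 and 2. With single libraries left out, G6pc ranged from -0.42 (without library 18) to 0.67, Cyp2f2 from -0.25 (without library 2) to 0.04 (without library 1), Ebp from -0.09 (without library 17) to 0 (without library 18) and Oat from -0.05 (without library 15) to 0.49 (without library 17). Txnip was at -0.1, -0.03 and -0.19 without libraries 15, 18 and 3. No called gene turned its sign under any alternative run, and the cause of the other changes was not tested. No paired analysis was possible because the libraries carry unique numbers that no 2 groups share. Depth limits genes near 1 RPKM, where a few reads decide a value.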

Other observations

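Several lists without a called gene had sums per library that did not overlap between the groups, although a sum is carried by its most abundant members. Genes of fatty acid oxidation and ketogenesis summed to 6810 to 8470 RPKM in infused livers, against 9190 to 9860 RPKM in uninfused ones, and 5 of 28 were lower at an unadjusted p under 0.05, with 1 higher, against 7.33% and 4.8% of all genes. Without library 17 that count was 2 lower and 2 higher, against 6.93% and 6.22%. Genes of bile acid synthesis and transport summed to 2490 to 2840 RPKM in infused livers, against 2930 to 3100 RPKM in uninfused ones. Pericentral genes, which include Cyp2e1, summed to 7360 to 10100 RPKM in infused livers, against 11000 to 13100 RPKM in uninfused ones. In these 3 lists all 4 infused libraries, library 17 included, lay below the 3 uninfused ones. The sums of hepatocyte markers and of pancreas and fat markers, given above, were also apart and lower. Other sums were apart on the higher side. Stellate cell and fibroblast markers summed to 286 to 344 RPKM in infused livers, against 243 to 274 RPKM in uninfused ones. Cell cycle genes summed to 50.3 to 71.3 RPKM in infused livers, against 47.9 to 49.0 RPKM in uninfused ones. Cholesterol synthesis genes, 23 in all, held none at an unadjusted p under 0.05 with all libraries and 3 lower without library 17, and their sums overlapped at 1030 to 1960 RPKM in infused livers and 1390 to 1880 RPKM in uninfused ones. The male-biased liver genes ranged widely, with sums of 7660 to 21500 RPKM in infused livers and 15100 to 29400 RPKM in uninfused ones and none of 19 at an unadjusted p under 0.05.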
